A study of Mus musculus with 8 samples.

Results

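Snord32a, Snord33, Snord34 and Snord35a are 4 small nucleolar RNAs (snoRNAs) of the box C/D class that lie inside introns of Rpl13a, the gene of a protein of the large ribosomal subunit. They were taken from a small RNA sequencing table of mouse sperm as the exon rows that carry these 4 symbols, which is 4 of 45090 features and 4 of 115 snoRNA features, and they were set beside the exon and intron rows of Rpl13a. They were chosen for the difference between ethanol and control libraries described below. That difference is therefore given as a description, and no test of it is offered as support. The series asks how sperm noncoding RNA differs after alcohol exposure has ended. It holds 8 libraries, 4 from sperm labelled control and 4 from sperm labelled ethanol, with no other treatment, allele or sort named in the labels. The sources used here do not give strain, age, dose, route, number of animals or pooling, and nothing says that the libraries of a group came from separate animals. A p-value here therefore measures the spread between libraries, which may be technical.

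Box C/D snoRNAs guide 2′-O-methylation of ribosomal RNA. Each carries a C box near its 5′ end and a D box near its 3′ end, binds the methyltransferase fibrillarin together with Nop56, Nop58 and Snu13, and pairs with its target through the bases just upstream of a D box. Most are not transcribed on their own: they are cut out of introns of a host gene after splicing, and many hosts are ribosomal protein genes. Snord32a guides sites in both 18S and 28S rRNA, Snord33 a site in 18S rRNA, and Snord34 and Snord35a sites in 28S rRNA. The snoRNAs of Rpl13a are also known from work on lipid-induced and oxidative stress in cultured cells and mice. Late spermatids and sperm make little or no new RNA, and sperm acquire small RNAs during passage through the epididymis.

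The sequences are shown because they are the molecules counted and because one of them has a near copy elsewhere in the table. They are the GENCODE M21 transcripts on the GRCm38 build, chromosome 7, minus strand, and the accession versions of all 5 rows were those that GENCODE pairs with these genes. The sources used here do not name the build behind the counts. The coordinates are those of the annotation. Capitals mark the core of the C box, TGATG, and the D box, CTGA.
Snord32a (intron 2, chr7:45127382-45127464): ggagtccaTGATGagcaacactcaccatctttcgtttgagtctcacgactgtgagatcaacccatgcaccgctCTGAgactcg
Snord33 (intron 4, chr7:45126864-45126947): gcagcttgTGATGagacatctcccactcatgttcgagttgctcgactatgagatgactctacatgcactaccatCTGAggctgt
Snord34 (intron 5, chr7:45126601-45126670): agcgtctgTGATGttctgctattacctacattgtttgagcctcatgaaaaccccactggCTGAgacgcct
Snord35a (intron 6, chr7:45126346-45126435): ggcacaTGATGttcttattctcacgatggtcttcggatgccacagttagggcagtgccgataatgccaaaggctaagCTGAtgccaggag
Snord35b (outside Rpl13a, chr7:45123025-45123111): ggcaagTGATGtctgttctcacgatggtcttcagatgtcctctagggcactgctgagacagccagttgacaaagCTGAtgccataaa

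The 4 snoRNAs are 83, 84, 70 and 90 bases long and share little sequence beyond the boxes: aligned end to end, their identities ran from 52.3% (Snord33 with Snord34) to 65.9% (Snord32a with Snord33). Both boxes were searched on the transcript strand in windows of 20 bases. TGATG stood in the first 20 bases and CTGA in the last 20 of all 4, as in 86.7% of the 98 GENCODE transcripts named Snord, in none of the 42 named Snora, and in 0.425% of all 141767 transcripts. Snord35b, which lies outside Rpl13a, was 73.9% identical to Snord35a and shares the 17-base run ttctcacgatggtcttc with it, from base 18 of Snord35a and base 16 of Snord35b. Reads from that run could have been divided between the 2 genes or shared by them; the sources used here do not state the counting rule.

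Within the host, each snoRNA fills a different intron. Rpl13a has 8 exons and 7 introns in the annotation, and its introns 2, 4, 5 and 6 measure 221, 196, 171 and 240 bases. The snoRNAs start 31, 43, 38 and 42 bases after the 5′ splice site and end 107, 69, 63 and 108 bases before the 3′ splice site, and each takes 37.5% to 42.9% of its intron. All 4 lie within the same annotated Rpl13a transcript.

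**Figure D1:**
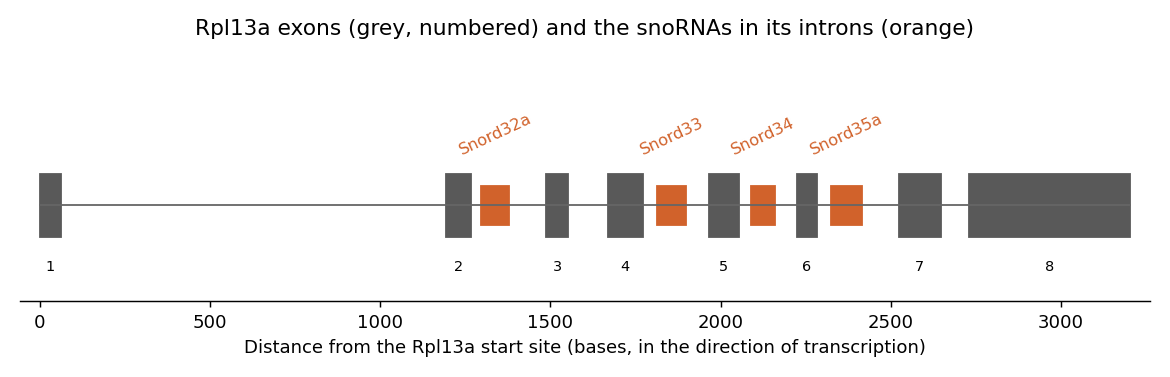
Map of Rpl13a in the direction of transcription, with distance from the annotated start site in bases on the horizontal axis. Grey boxes are the 8 exons, orange boxes the 4 snoRNAs, drawn to scale; each snoRNA lies in an intron of its own.

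Depth and library make-up touch every value below. The libraries held 3481865 to 6975180 counts, and 13515 features had enough counts to be tested. Without any 1 control library edgeR called 3 to 10 features in all, so the counts of calls given here rest on all 4 controls. Ethanol replicate 2 stood apart: its log2 CPM (counts divided by library size, on a common scale) correlated with the other ethanol libraries at 0.678 to 0.815 across features, against 0.893 to 0.929 between control libraries. All 12 markers of spermatids and sperm had counts in every library, and their summed CPM was 567 to 734 in control and 223 to 608 in ethanol. Of 13 epididymal epithelium markers 12 had counts, 7 of them in every library (Spink1 was at 0 or had no row). Their summed CPM was 392 to 659 in control and 857 to 11231 in ethanol, highest in ethanol replicate 2. Most of it came from Crisp1, at 477 ± 119 CPM in control and 3400 ± 4064 in ethanol (SD, n = 4 each). All 6 epithelial markers tested had changes above 0, and 5 passed as higher in ethanol (edgeR adjusted p below 0.05). By comparison 11.9% of all features and 23.8% of mRNA exon features passed as higher. Among the 5 were the secreted protein Crisp1 (log2 fold change 2.83 ± 0.71 SE), the adhesion protein Epcam (2.21 ± 0.55) and the keratins Krt8 (2.45 ± 0.57) and Krt18 (2.67 ± 0.62). The median of the 6 was 2.56, and 1.49 without ethanol replicate 2, where 4 of the 6 passed. Of 10 blood and immune markers, all with counts, 5 were tested and all 5 had changes below 0 (median -1.78). The 2 that passed as lower, where 1.75% of all features did, were the haemoglobin genes Hba-a1 (-2.02 ± 0.49) and Hba-a2 (-2.01 ± 0.51). The summed CPM of the 10 markers was 29.2 to 55.9 in control and 8.66 to 32.3 in ethanol. The 8 Sertoli and Leydig cell markers were too low to test, at a summed CPM of 3.84 to 12.2 in control and 5.41 to 17.1 in ethanol. The part of these differences in the snoRNA values was not tested, and fewer contributing cells and less RNA per cell cannot be told apart in such libraries.

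As CPM, all 4 snoRNAs were lower in every ethanol library than in every control library. CPM here and below are scaled by TMM factors, which align libraries on their bulk of features. Snord32a, the guide for both rRNAs, had 211, 307, 264 and 242 counts in control replicates 1 to 4 and 116, 104, 135 and 80 in ethanol replicates 1 to 4. As CPM these were 54.0, 77.6, 64.4 and 65.8 in control and 16.7, 21.4, 24.9 and 13.5 in ethanol. The lowest control library lay well above the highest ethanol library. The means were 65.5 ± 9.66 and 19.1 ± 5.02 CPM (SD, n = 4 each), a 3.43-fold lower level and a log2 fold change of -1.78 ± 0.37 (SE).

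Snord33, the 18S guide, had 220, 391, 365 and 389 counts in control and 209, 183, 164 and 95 in ethanol. Its CPM were 56.3, 98.9, 89.1 and 106 in control and 30.0, 37.6, 30.2 and 16.1 in ethanol. Control replicate 1 was the lowest control library and ethanol replicate 4 the lowest ethanol library, and the groups did not overlap. The means were 87.5 ± 21.9 and 28.5 ± 9.01 CPM (SD, n = 4 each), 3.07-fold lower in ethanol, with a log2 fold change of -1.62 ± 0.41 (SE).

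Snord34, one of the 28S guides and the shortest of the 4, had 286, 364, 447 and 466 counts in control and 304, 218, 230 and 153 in ethanol. Its CPM were 73.2, 92.0, 109 and 127 in control and 43.7, 44.8, 42.4 and 25.9 in ethanol. The raw counts of the 2 groups overlapped, because ethanol replicate 1 was among the deepest libraries, and the CPM did not. The mean was 100.3 ± 22.9 CPM in control and 39.2 ± 8.93 in ethanol (SD, n = 4 each), 2.56-fold lower, with a log2 fold change of -1.36 ± 0.39 (SE).

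Snord35a, the other 28S guide and the longest of the 4, had the fewest counts, with 77, 135, 146 and 118 in control and 78, 75, 77 and 47 in ethanol. Its CPM were 19.7, 34.1, 35.6 and 32.1 in control and 11.2, 15.4, 14.2 and 7.95 in ethanol. The gap between the groups was narrow in CPM, from 15.4 in ethanol replicate 2 to 19.7 in control replicate 1. The raw counts overlapped, with 78 in ethanol replicate 1 and 77 in control replicate 1. The mean was 30.4 ± 7.27 CPM in control and 12.2 ± 3.34 in ethanol (SD, n = 4 each), 2.49-fold lower, with a log2 fold change of -1.32 ± 0.36 (SE).

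**Figure D2:**
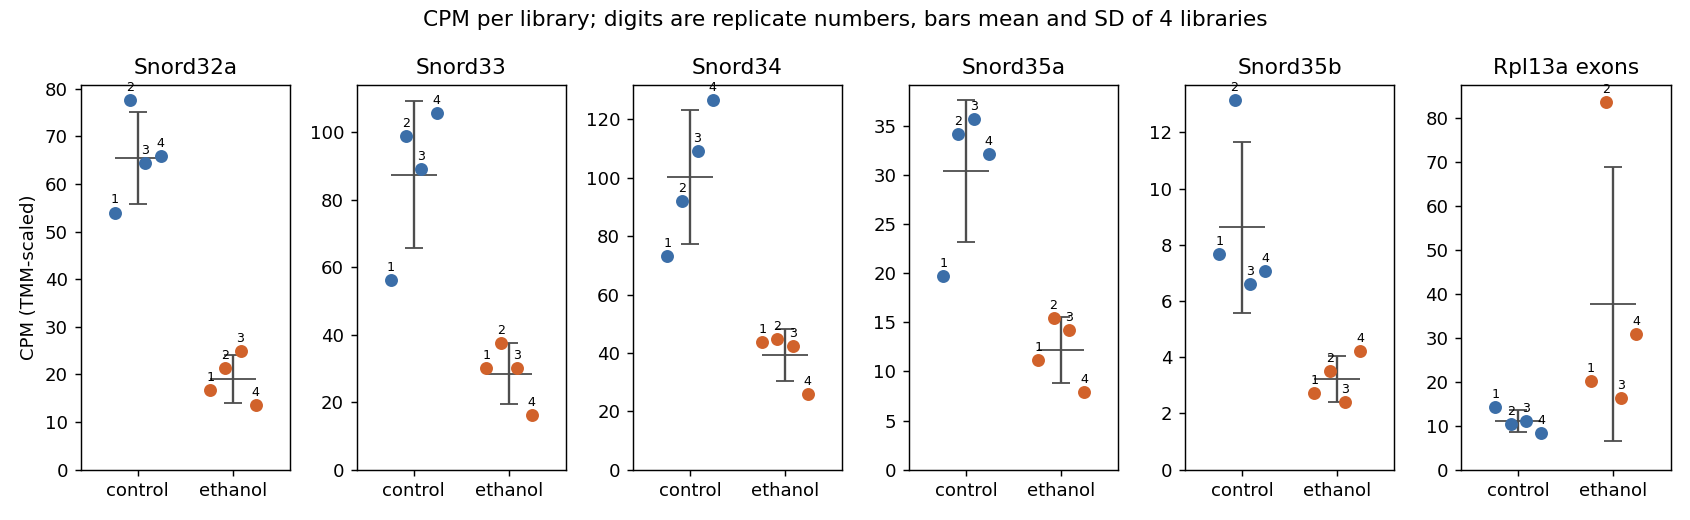
TMM-scaled CPM (vertical axes, each starting at 0) of the 4 Rpl13a snoRNAs, the near copy Snord35b and the Rpl13a mRNA exons in control (blue) and ethanol (orange) libraries; digits are replicate numbers and bars show mean and SD of 4 libraries. The 5 snoRNAs sit lower in all ethanol libraries and the Rpl13a exons higher, with exons of ethanol replicate 2 at 83.7 CPM.

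The counts behind these values ran from 47 to 466 per snoRNA and library. An exact Poisson interval at 95% confidence was 34.5 to 62.5 around the lowest of them and 425 to 510 around the highest. It covers counting error only, as amplified reads are not independent molecules. Summed over the 4 snoRNAs the CPM were 203, 303, 298 and 330 in control and 102, 119, 112 and 63.4 in ethanol, with control replicate 1 again the lowest control library. With edgeR's quasi-likelihood test and a Benjamini-Hochberg adjusted p below 0.05, all 4 snoRNAs passed as lower in ethanol, where 1.75% of the 13515 features and 20.2% of the 89 tested snoRNA features passed in that direction. Every ethanol library lay below every control library for 6.93% of all features and for 33.7% of the snoRNA features. Since the 4 were chosen from this contrast, nothing is read from their count. It was 0 of 4 when any 1 control library was left out, where 0.0133% (without control replicate 1 or 2), 0.0397% (without replicate 3) and 0.0471% (without replicate 4) of all features passed as lower. It was 2 of 4 without ethanol replicate 1 (2.91% of all features), 1 of 4 without ethanol replicate 4 (0.609% of all features) and 0 of 4 with limma-voom (0.0518% of all features). In each of these fits 4 of 4 had an unadjusted p below 0.05, from which nothing is read either. Such a p was common: with limma-voom 4435 of 13515 features had one, in either direction.

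The direction did not rest on the library that stood apart. Without ethanol replicate 2 the log2 fold changes were -1.90 (Snord32a), -1.85 (Snord33), -1.49 (Snord34) and -1.52 (Snord35a), each larger in size than with all 8 libraries. The sample codes of the ethanol libraries have 2 styles, 1 shared by replicates 1 and 2 and another by replicates 3 and 4, and no label says whether these mark batches. The control codes have a further style that no ethanol library shares. If the styles mark batches, batch and group cannot be told apart, also in the comparisons that follow. With ethanol replicates 1 and 2 alone against all controls the changes were -1.94, -1.52, -1.33 and -1.35 in the same order of genes, and 2 of 4 passed (3.73% of all features passed as lower in that fit), without Snord34 (edgeR adjusted p = 0.0790) and Snord35a (0.0565). With replicates 3 and 4 alone they were -1.81, -1.96, -1.59 and -1.50, and 4 of 4 passed (1.73% of all features). As the 4 were chosen from this contrast, nothing is read from these counts or p-values.

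The scale mattered more. Scaled by library totals instead of TMM, which shifted the median log2 fold change of all features from -0.01 to 0.24, the 4 changes were -1.50, -1.29, -1.04 and -1.01. On this scale 1 of 4 passed, Snord32a, where 0.747% of all features passed as lower. Snord33 (edgeR adjusted p = 0.0549), Snord34 (0.0701) and Snord35a (0.0913) did not pass. Nothing is read from these calls either, as the 4 were chosen from this contrast. On CPM of library totals Snord32a (50.2 to 73.6 in control, 14.1 to 31.0 in ethanol) and Snord34 (68.0 to 106 against 26.9 to 65.0) did not overlap. Snord33 (52.3 to 93.7 against 16.7 to 54.6) and Snord35a (18.3 to 34.6 against 8.26 to 22.4) did, because ethanol replicate 2 lay above control replicate 1. On that scale 3.49% of all features had every ethanol library below every control library.

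Among themselves the 4 snoRNAs stood in the same order in all 8 libraries once divided by length, in places by a small margin. Per kilobase of annotated length and averaged over 8 libraries, the level was 996 ± 520 CPM per kb for Snord34, 690.5 ± 419 for Snord33, 509.6 ± 311 for Snord32a and 237 ± 123 for Snord35a (SD, n = 8, both groups together). Each neighbouring pair stood in this order in 8 of 8 libraries. The mean log2 ratio was 0.61 ± 0.24 (SD) for Snord34 over Snord33, 0.45 ± 0.29 for Snord33 over Snord32a and 1.01 ± 0.32 for Snord32a over Snord35a. The smallest log2 ratio in any library was 0.16, 0.043 and 0.59 for these pairs, so that of Snord33 over Snord32a was close to a tie. Whether counts scale with length in these libraries was not tested. The pairs were read from these same libraries, so the order is a description with no test. It is not the order along the gene, where Snord32a comes first. Without division by length, Snord33 exceeded Snord34 in control replicate 2 (391 against 364 counts).

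Their proportions moved less than their level. Snord32a made up 23.4% ± 3.19 of the summed counts of the 4 in control and 19.5% ± 2.77 in ethanol, Snord33 30.6% ± 2.25 and 28.4% ± 2.74, Snord34 35.3% ± 3.43 and 39.8% ± 2.55, and Snord35a 10.7% ± 1.14 and 12.3% ± 0.861 (SD, n = 4 each). The groups overlapped for each of these 4 shares. Of the 6 pairwise ratios of counts, 1 did not overlap: Snord32a to Snord35a, which was 2.74, 2.27, 1.81 and 2.05 in control and 1.49, 1.39, 1.75 and 1.70 in ethanol. This ratio was singled out after its values were seen and was not tested.

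Across the 8 libraries the log2 CPM of the 4 snoRNAs ran closely together, with Pearson's r from 0.947 (Snord32a with Snord34) to 0.985 (Snord33 with Snord34). Taken as deviations from the group means the r were 0.635 to 0.931, highest for Snord33 with Snord35a. These points share libraries, depth and scaling, so the correlations describe the values and carry no p.

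The host transcript went the other way, as most mRNA exons did. Reads on Rpl13a exons numbered 56, 41, 45 and 31 in control and 141, 407, 88 and 182 in ethanol. As CPM they were 14.3, 10.4, 11.0 and 8.43 in control and 20.3, 83.7, 16.2 and 30.8 in ethanol, so that every ethanol library lay above every control library. The mean rose from 11.0 ± 2.46 to 37.7 ± 31.3 CPM (SD, n = 4 each), with a log2 fold change of 1.77 ± 0.50 (SE) and an adjusted p of 0.0349 (edgeR), where 11.9% of all features and 23.8% of the 6545 tested mRNA exon features passed as higher. Every ethanol library lay above every control library for 14.4% of all features and 28.6% of mRNA exons, whose median change was 0.88. All 8 exon rows had more raw counts in the ethanol libraries together than in the control libraries together, from 40 against 24 to 216 against 54. These sums are not scaled for depth, and ethanol replicates 1, 3 and 4 were deeper than every control library. In the row with 40 against 24, ethanol replicates 1 to 4 held 8, 19, 3 and 10 counts and control replicates 1 to 4 held 7, 5, 6 and 6. Without ethanol replicate 2 the log2 fold change of the Rpl13a exons was 0.97 (edgeR adjusted p = 0.0406). It no longer passed when any 1 control library (adjusted p = 0.0893 to 0.105) or ethanol replicate 4 (0.0542) was left out.

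The introns around the snoRNAs held almost no reads. Summed over the 6 intron rows of Rpl13a the counts were 3, 9, 5 and 4 in control and 13, 6, 17 and 9 in ethanol, too few to pass the filter for testing. Reads of the snoRNAs were thus counted in the snoRNA rows and not again in the intron rows, and no row named a member together with another gene.

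The 4 snoRNAs together outnumbered the exon reads of their host in every library. The ratio of summed snoRNA counts to Rpl13a exon counts was 14.2, 29.2, 27.2 and 39.2 in control and 5.01, 1.43, 6.89 and 2.06 in ethanol, with means of 27.4 ± 10.3 and 3.85 ± 2.56 (SD, n = 4 each). This ratio does not depend on the scaling of libraries, and its groups did not overlap. It combines a numerator chosen for this contrast with a denominator that rose, so it is given without a test. For deviations from the group means the r of the 4 snoRNAs with the Rpl13a exons was -0.127 to 0.0404.

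**Figure D3:**
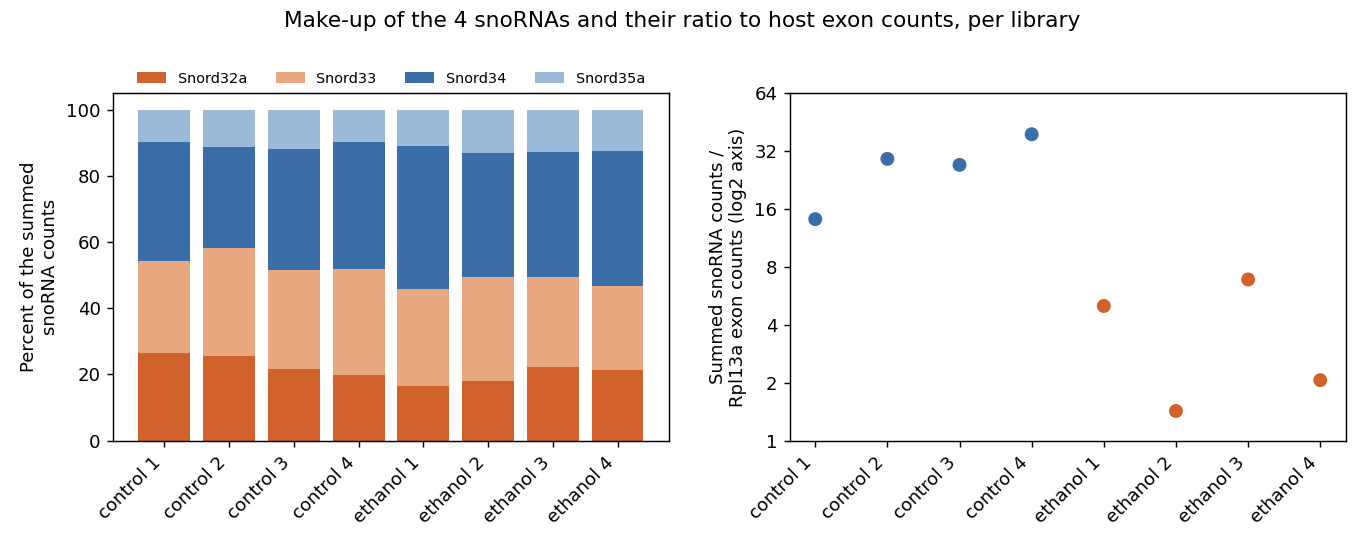
Left, share of each of the 4 snoRNAs in their summed counts (percent, vertical axis) for each library; right, ratio of their summed counts to Rpl13a exon counts on a log2 axis, control in blue and ethanol in orange. The groups overlap in each share, with Snord32a at 19.9% to 26.6% in control and 16.4% to 22.3% in ethanol. The ratio is 14.2 to 39.2 in control and 1.43 to 6.89 in ethanol.

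Snord35b, the near copy of Snord35a, was scarcer and also lower. It had 30, 52, 27 and 26 counts in control and 19, 17, 13 and 25 in ethanol, or 7.68, 13.1, 6.59 and 7.07 CPM against 2.73, 3.50, 2.39 and 4.23. The groups did not overlap, and the log2 fold change was -1.42 ± 0.37 (SE, edgeR adjusted p = 0.0304). The ratio of Snord35a to Snord35b counts was 2.57 to 5.41 in control and 1.88 to 5.92 in ethanol, which overlapped. In their deviations from the group means Snord35b did not follow the 4 Rpl13a snoRNAs, with r of -0.505 to -0.110.

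Most other snoRNAs had changes below 0 too. Of 56 other box C/D snoRNAs tested (features named Snord), 8 passed as lower and 0 as higher (edgeR, with 24 lower and 1 higher at an unadjusted p below 0.05; DESeq2 called 22 lower and 0 higher, where it called 6.11% of all features lower), which is 14.3% beside 1.75% of all features. Of all 13515 features, 4462 had an unadjusted p below 0.05 in either direction (edgeR). The median log2 fold change of the 56 was -0.77, with 51 of 56 below 0, against -1.49 for the 4 Rpl13a snoRNAs and -0.01 for all features. Values this low were not confined to snoRNAs: the 226 miRNAs tested had a median of -1.52, and 89 of them, or 39.4%, passed as lower. Introns had a median of -0.38. In 23 of the 56, or 41.1%, every ethanol library lay below every control library. The count of 8 was 26 without ethanol replicate 2, 13 without ethanol replicate 3, 4 without ethanol replicate 4 and 0 without any 1 control library. Lower calls over all features moved as well. The 237 became 381, 837 and 87 without ethanol replicates 2, 3 and 4, and 2 to 7 without any 1 control library. Nothing particular to box C/D snoRNAs is read from these shifts. Box H/ACA snoRNAs, which guide pseudouridylation, gave 5 lower calls of 25 and a median of -0.93, and the Cajal body RNAs (scaRNAs) 1 of 4 and a median of 0.28.

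Ordered from the lowest change upward, the 4 stood at places 3 (Snord32a), 8 (Snord33), 17 (Snord34) and 19 (Snord35a) of 89 tested snoRNA features, and by mean CPM at places 30, 23, 18 and 44. The 5 smallest p-values belonged to Snord32a, Snord70 (log2 fold change -1.69 ± 0.39), the H/ACA snoRNA Snora21 (-1.67 ± 0.39), Scarna17 (-1.51 ± 0.35) and Snord85 (-2.08 ± 0.51), the last 4 each with an edgeR adjusted p of 0.0287. Snord85 was also the most abundant snoRNA, at 1249 ± 190 CPM in control and 295.5 ± 179 in ethanol (SD, n = 4 each). Of the next most abundant, Snord95 passed (-1.54 ± 0.44, adjusted p = 0.0356), and Snord2 (-0.78 ± 0.42), Snord104 (-0.71 ± 0.43) and Snord17 (-0.29 ± 0.62) did not.

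**Figure D4:**
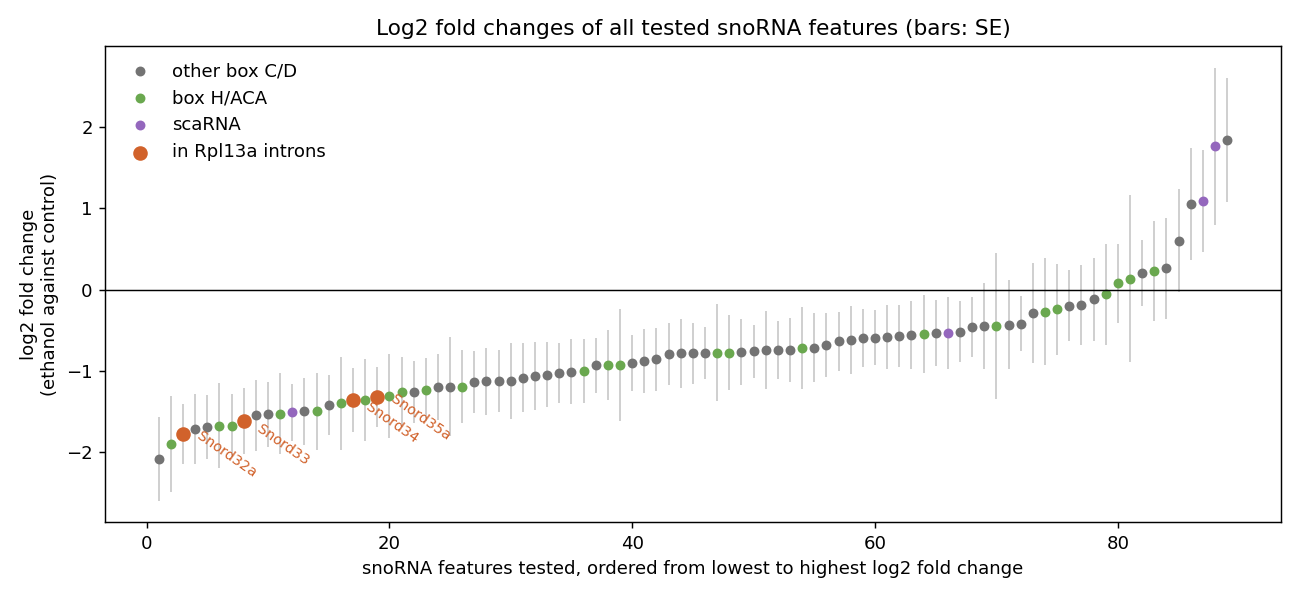
Log2 fold change of ethanol against control (vertical axis, bars show SE) for the 89 tested snoRNA features, ordered from lowest to highest along the horizontal axis and coloured by type. The 4 Rpl13a snoRNAs, in orange, stand at places 3, 8, 17 and 19, and most other snoRNAs also lie below 0.

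When the snoRNA features were fitted alone, so that each was measured against the other snoRNAs, the 4 changes shrank to -0.83 ± 0.23 (Snord32a), -0.74 ± 0.22 (Snord33), -0.46 ± 0.24 (Snord34) and -0.40 ± 0.26 (Snord35a). In that fit the median of the other box C/D snoRNAs turned to 0.16, and edgeR called 0 of 89 features, with 14 at an unadjusted p below 0.05. As a share of the counts of all features named Snord the 4 made up 3.46%, 4.55%, 4.62% and 5.88% in control and 2.70%, 1.98%, 3.50% and 3.83% in ethanol, and these groups overlapped. Box C/D RNAs filed in other classes, such as U14, are outside this share. Whether the 4 differ from their class was not tested, since they were chosen from it by this contrast.

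From the list of snoRNAs in introns of other ribosomal protein genes, 41 in all, 25 had counts and 22 were tested. Those without counts were at 0 or had no row. Of the 22 tested, 8 passed as lower and 0 as higher (edgeR, with 13 lower and 1 higher at an unadjusted p below 0.05; DESeq2 called 12 lower and 0 higher). The share called lower was 20.2% over all 89 snoRNA features and 1.75% over all features with edgeR, and 6.11% over all features with DESeq2. The median was -0.89, and without ethanol replicate 2 it was -1.26, with 13 of 22 called lower. In that same fit 51 of all 89 snoRNA features and 26 of 56 other box C/D snoRNAs were called lower, so nothing particular to these hosts is read from the count. Examples were Snord100 of Rps12 (-1.53 ± 0.40), Snora21 of Rpl23 (-1.67 ± 0.39) and Snord83b of Rpl3 (-1.49 ± 0.41). Exons of ribosomal protein genes rose widely: 45 of 46 large subunit genes (median 2.17) and 31 of 33 small subunit genes (median 2.16) passed as higher, against 23.8% of mRNA exon features and 11.9% of all features. Without ethanol replicate 2 the counts were 42 and 26 and the medians 1.31 and 1.24, against 0.50 for all mRNA exons. Among those with the smallest p-values were Rpl19 (2.78 ± 0.53), Rpl14 (2.35 ± 0.47) and Rpl29 (2.27 ± 0.46) of the large subunit and Rps26 (2.51 ± 0.50), Rps14 (2.32 ± 0.50) and Rps16 (2.43 ± 0.53) of the small subunit. Without ethanol replicate 2 these 6 changes were 1.49 (Rps14) to 2.02 (Rpl19). The change of Rpl13a was below both medians with all libraries (1.77) and without ethanol replicate 2 (0.97).

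Hosts were then taken from GENCODE for every tested snoRNA that lies within 1 gene with tested mRNA exons, a comparison added after the values were seen. Of 23 other snoRNAs with a ribosomal protein host, 20 had a change below 0 and a host above 0, and 8 of them passed as lower, while all 19 hosts passed as higher. Of 29 snoRNAs with another kind of host, 23 had such opposite signs, 3 passed as lower, and 5 of 24 hosts passed as higher. Opposite signs are common by the classes alone, since 88.8% of snoRNA features lay below 0 and 83.0% of mRNA exon features above 0, so nothing particular to these pairs is read from the counts. Snord16a of Rpl4, which did not pass, had the highest snoRNA change at 1.83 ± 0.76, beside 1.95 ± 0.47 for its host. Its ethanol CPM were 113, 625, 40.5 and 42.1, and without ethanol replicate 2 its change was 0.12, beside 1.31 for the host.

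**Figure D5:**
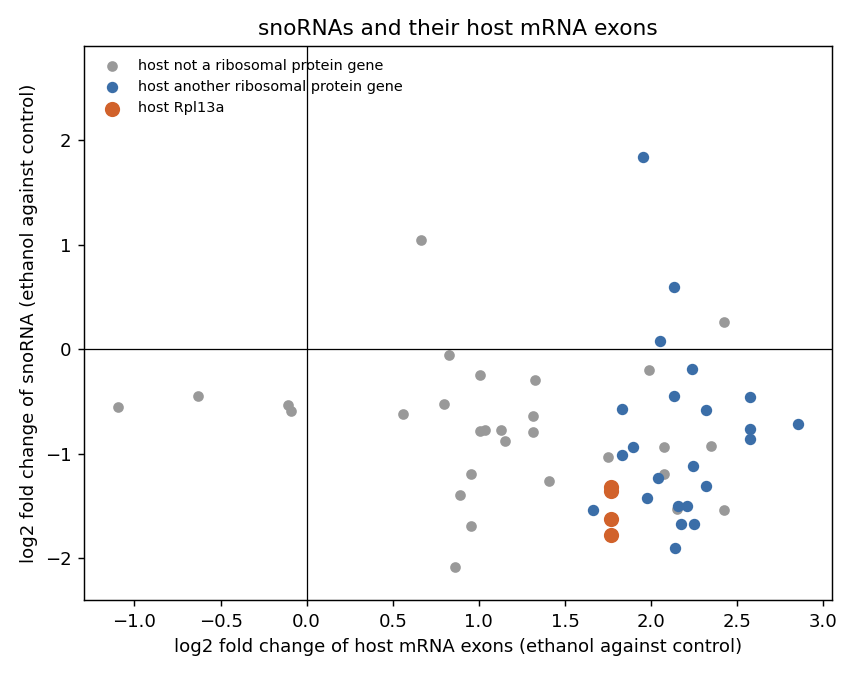
Log2 fold change of each snoRNA (vertical axis) against that of the mRNA exons of its host gene (horizontal axis), ethanol against control. Rpl13a with its 4 snoRNAs (orange) and most snoRNAs of other ribosomal protein genes (blue) lie in the lower right, where the snoRNA is lower and the host higher.

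Other genes of the snoRNA pathway were mostly too scarce to test. Of 15 genes of box C/D core and assembly proteins 13 had counts (Snu13 and Nopchap1 were at 0 or had no row). Only 1 was tested, Nop58, which did not pass (0.95 ± 0.44, edgeR adjusted p = 0.148). Of 14 genes of intron lariat debranching and exonucleases 3 were tested and 0 passed (edgeR, with 1 higher at an unadjusted p below 0.05; DESeq2 called 0), among them the exonucleases Xrn1 (0.42 ± 0.35) and Xrn2 (1.32 ± 0.57). Of 10 snoRNAs of Gas5, a noncoding host gene, 1 had counts, and the others were at 0 or had no row. This was Snord47, with 30.0 to 37.9 CPM in control and 8.12 to 21.4 in ethanol, a change of -1.14 ± 0.38 (edgeR adjusted p = 0.0575). None of the 12 sperm markers passed with edgeR (2 lower at an unadjusted p below 0.05; DESeq2 called 2 lower), and their median was -0.53, with Smcp at -0.93 ± 0.41 and Odf1 at -0.54 ± 0.43.

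The features whose log2 CPM was most like that of each snoRNA over the 8 libraries were mostly snoRNAs and introns. Among the 5 nearest to each of the 4, 20 places in all, 10 were intron features, 6 snoRNAs, 3 RNAs of the snRNA class and 1 a noncoding exon. Nearest to Snord32a were the introns of Rps20 (r = 0.981), Ppan (0.981), Eif5 (0.975) and Rpl7a (0.971) and the RNA of RNase MRP, Rmrp (0.971). Nearest to Snord33 were the box C/D RNA U14 (0.993), Snord34 (0.985), Snord35a (0.985), U13 (0.982) and the introns of Rabggtb (0.982). Nearest to Snord34 were Snord100 (0.990), introns of Rpl7a (0.987), Snord33 (0.985) and introns of Taf1d (0.985) and Dennd3 (0.982). Nearest to Snord35a were Snord33 (0.985), U14 (0.981), introns of Rbmx (0.968) and Rps12 (0.967), and Snord34 (0.966). GENCODE places a snoRNA gene inside 8 of the 9 genes behind these intron features, and inside 3.80% of the genes behind all 5159 intron features tested.

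After removal of the group means the nearest features were more mixed. The highest r were 0.991 for Snord32a with introns of Lrrc40, 0.991 for Snord33 with U14, 0.950 for Snord34 with exons of Bcl3, and 0.975 for Snord35a with introns of Srebf2. Among the 13514 other features none of the 4 had another of the 4 as its nearest on this measure: the best placed was Snord35a at place 7 for Snord33. These rankings over 8 libraries pick the highest of many values and are given as a description.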

How the data were processed

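The deposited values are unnormalized counts, with a row for each exon, intron, miRNA, transposon or structural RNA and a column for each library, per the file headers. Trizol was used for extraction and Qiaseq for library construction, per the labels' protocols. The aligner, the counting rule, the genome build and whether reads or molecular identifiers were counted are not given in the sources used here. The labels' titles gave group and replicate number.

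Rows of one name and type were summed, which turned 1078961 rows into 45090 features of 16 classes. Tests used the robust quasi-likelihood fit of edgeR 4.0.16 under R 4.3.3 on TMM-scaled counts (library sizes taken before filtering) with group as sole term, a filterByExpr minimum count of 10 and a threshold of 0.05 on p-values adjusted by Benjamini and Hochberg over 13515 features. SE is the absolute log2 fold change divided by the square root of F. Log2 CPM for correlations used a prior count of 1. Alternatives included DESeq2 1.42.0 and limma 3.58.1. Sequences came from GENCODE M21, aligned with Biopython 1.88.

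The 4 snoRNAs, the gene lists and the rules for named genes were chosen with earlier results of these data known. Named were the 4 snoRNAs, host rows and near copies, the 5 snoRNAs with the smallest p and the 5 with the highest mean CPM, up to 4 called members of each list or otherwise its 2 most abundant, and the 5 features most like each snoRNA. Snord16a was named after its values were seen, and some genes that the rule names are not reported here. The lists were box C/D core and assembly proteins, snoRNAs in introns of other ribosomal protein genes and of Gas5, large and small subunit ribosomal protein genes, intron lariat debranching and exonucleases, and markers of sperm, epididymal epithelium, blood and immune cells, and Sertoli and Leydig cells.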

Additional observations from a re-analysis of the deposited data

Results flagged for a closer look

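In 4 libraries a group's extreme value is marked when its gap to the nearest library takes most of the group's range, which chance alone does for about 1 group in 20. Of 104 groups tested, 15 were marked. For the Rpl13a snoRNAs these were Snord34 in ethanol replicate 4, at 25.9 CPM against 42.4 to 44.8 in the other ethanol libraries, and the summed counts of the 4 snoRNAs in control replicate 1, at 794 against 1197 to 1222 in the other controls, which had similar depth. Snord35b in control replicate 2 stood at 13.1 CPM against 6.59 to 7.68.

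Other snoRNAs marked were Snora21 (2.37 CPM) and Snord100 (23.7) in ethanol replicate 4, low as Snord34 was, Snord17 (523) and Snord83b (3.08) in ethanol replicate 2, Snord104 (651) in control replicate 2 and Snord47 (30.0) in control replicate 1. Ethanol replicate 2 was the highest ethanol library by such a gap for Krt8 (134 CPM), Krt18 (87.0), Epcam (108), Rpl14 (40.9), Rps14 (64.0) and Xrn2 (18.1).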

How the results depend on the processing

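Each of the 4 snoRNAs kept a negative log2 fold change in all 18 alternatives, and apart from the fit of snoRNA features alone their ranges were -2.05 to -1.50 (Snord32a), -1.96 to -1.29 (Snord33), -1.60 to -1.04 (Snord34) and -1.60 to -1.01 (Snord35a). The 1841 features called were 1200 with DESeq2 size factors, 3144 with the DESeq2 test, 8 with limma-voom (4435 at an unadjusted p below 0.05), 3451 without the count filter, 1187 with at least 10 counts in every library, 3320 with ethanol libraries 1 and 2 only, 816 with 3 and 4 only, 0 of 89 with edgeR on snoRNA features alone, and 3 to 3575 with single libraries left out. The 8 other box C/D snoRNAs called lower were 2 with library totals, 22 with DESeq2, 0 with limma-voom (29 lower at an unadjusted p below 0.05), 5 with at least 10 counts in every library, 5 and 21 with ethanol libraries 1 and 2 or 3 and 4 only, 0 with edgeR on snoRNA features alone (4 lower and 5 higher at an unadjusted p below 0.05), and 0 to 26 with single libraries left out. Lower calls over all features shifted too. The 237 became 101 with library totals, 826 with DESeq2, 7 with limma-voom and 140 with at least 10 counts in every library. With ethanol libraries 1 and 2 or 3 and 4 only they were 603 and 258. The cause of these shifts was not tested.

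For Rpl13a exons (1.77) the change no longer passed with DESeq2 size factors (1.79, adjusted p = 0.0507), limma-voom (1.49, 0.0666) or ethanol libraries 3 and 4 only (1.09, 0.0606), and ran from 0.97 to 1.98 with single libraries left out. Adjusted p over all alternatives ran from 0.00208 to 0.105. The difference in mean log2 ratio of summed snoRNA counts to Rpl13a exons, -3.02, was -2.10 with Rpl13a introns and -0.67 with other box C/D snoRNAs as reference. Rpl13a intron rows could be tested only without the count filter (0.57, adjusted p = 0.631). Rpl13a exons are not in the fit of snoRNA features alone.

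With the replicate number as a block, 3298 features, 17 other box C/D and 12 box H/ACA snoRNAs and 4 blood and immune markers were called, Snord47 passed (-1.22, adjusted p = 0.0221), and 4 epithelial markers did. No label says whether the numbers pair the samples. Deviations from the group means correlated at 0.328, 0.204, -0.122 and -0.019 for same-numbered libraries and at -0.396 to 0.378 for differently numbered ones, which does not decide it. Depth limits the 6 intron rows and most pathway mRNAs, which could not be tested.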
